A study of Mus musculus with 16 samples.

Results

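The 5 genes described here are Hba-a1, Hba-a2, Hbb-bs, Hbb-bt and Alas2, chosen by name as a measure of the blood left in brain tissue, out of 39179 genes in the count table. RNA sequencing covered 16 mice in 4 groups of 4, namely wild-type mice and mice homozygous for the MRPS5 V338Y knock-in allele, each at 3 and at 19 months of age. MRPS5 belongs to the small subunit of mitoribosomes, which translate the mRNAs of mitochondrial DNA. The methods of the study describe cortex from female mice without a mention of perfusion, while the labels give brain as the tissue and describe extraction from muscle. Comparisons were made between genotypes at each age and between ages in each genotype. Each asks whether the transcripts of these 5 genes differed between the groups compared. Which cells of the bulk tissue held them was not measured.

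Haemoglobin of the adult mouse is a tetramer of alpha-globin and beta-globin chains, each carrying a haem group that binds oxygen. Red cells of mammals lose their nucleus, but young circulating red cells, the reticulocytes, still carry globin mRNA, so that globin transcripts are a known sign of blood in the RNA of a solid tissue. Alas2 is the erythroid form of 5-aminolevulinate synthase, the first enzyme of haem synthesis, and its ubiquitous counterpart is Alas1.

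The alpha-globin genes lie side by side on chromosome 11, Hba-a1 (ENSMUSG00000069919) at chr11:32283511-32284465 and Hba-a2 (ENSMUSG00000069917) at chr11:32296489-32297298, both on the plus strand of GRCm38. The adult beta-globin genes Hbb-bs (ENSMUSG00000052305, chr7:103826534-103828096) and Hbb-bt (ENSMUSG00000073940, chr7:103812524-103813996) are on the minus strand. Alas2 (ENSMUSG00000025270) is at chrX:150547375-150570638 on the plus strand. The 5 genes are protein coding, and reads were counted per gene. The main transcripts of Hba-a1 and Hba-a2 differed at 1 aligned base apart from their ends, and those of Hbb-bs and Hbb-bt at 46 aligned bases, so the split of reads within each pair depends on how the authors' counting assigned them.

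The 250 bases before the RefSeq start of a gene (GRCm38.p6) are shown for 4 of the genes, because some of the same short letters recur in front of them. Whether these letters bear on the levels measured here was not tested. For each of the 5 genes the RefSeq start lies downstream of the start of the annotated gene above, so the windows reach into the annotated genes. The windows are chr11:32283422-32283671 for Hba-a1, chr7:103827929-103828178 (minus strand) for Hbb-bs, chr7:103813924-103814173 (minus strand) for Hbb-bt and chrX:150547167-150547416 for Alas2. Capitals mark the letters GATAA (the core bound by GATA factors), CACCC (bound by Kruppel-like factors), CCAAT (bound by NF-Y) and, as a form of the TATA box, the letters ATATAA, on either strand, none of which overlap each other in these windows.
Hba-a1: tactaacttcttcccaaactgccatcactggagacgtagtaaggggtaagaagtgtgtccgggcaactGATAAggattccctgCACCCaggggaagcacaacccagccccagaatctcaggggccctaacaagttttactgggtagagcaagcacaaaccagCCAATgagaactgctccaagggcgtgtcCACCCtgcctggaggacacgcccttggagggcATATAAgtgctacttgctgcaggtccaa
Hbb-bs: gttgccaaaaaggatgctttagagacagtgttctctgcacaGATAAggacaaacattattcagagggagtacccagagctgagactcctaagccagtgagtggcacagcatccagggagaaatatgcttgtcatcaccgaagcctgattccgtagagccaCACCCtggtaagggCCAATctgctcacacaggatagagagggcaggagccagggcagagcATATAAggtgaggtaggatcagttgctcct
Hbb-bt: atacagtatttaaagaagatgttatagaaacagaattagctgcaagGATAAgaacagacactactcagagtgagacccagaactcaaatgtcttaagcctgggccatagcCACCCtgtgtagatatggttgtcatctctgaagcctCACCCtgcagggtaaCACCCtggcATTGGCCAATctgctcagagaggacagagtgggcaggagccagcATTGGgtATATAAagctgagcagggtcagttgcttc
Alas2: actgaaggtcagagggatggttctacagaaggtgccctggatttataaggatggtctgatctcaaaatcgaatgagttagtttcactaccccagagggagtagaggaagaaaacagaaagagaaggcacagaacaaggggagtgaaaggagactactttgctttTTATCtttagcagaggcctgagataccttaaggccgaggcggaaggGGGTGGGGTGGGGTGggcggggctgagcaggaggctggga
The Hba-a2 window (chr11:32296242-32296491) shared a run of 247 bases with that of Hba-a1 and is not printed. Those of Hbb-bs and Hbb-bt were 69.3% identical. The 4 globin windows each held all 4 motifs, as did 0.466% of 32851 RefSeq promoters. The marked letters are those that recur in these windows, and the alpha-globin windows are near copies, so this share is no test. The Alas2 window held GATAA and CACCC on the other strand and neither of the remaining motifs. Alone, GATAA was in 22.6% of the promoters, CACCC in 52.0%, CCAAT in 33.8% and ATATAA in 9.10%.

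Total counts were between 6181448 and 19601664 per mouse. Between 1797 and 10886 of these counts in a mouse were assigned to the 4 adult globin genes, which was 0.0124% to 0.0860% of the total. Cortical neuron markers were present in all groups, with Slc17a7 means between 469 and 503 CPM, the count of a gene scaled to a common library size after TMM normalization. The ages differed in more than age. All sample titles of 19 months end in -N and none of 3 months do, and the meaning of this ending is not given. The 8 libraries from 3-month-old mice held Y-linked transcripts and almost no Xist, with Ddx3y at 119 ± 6.56 and 111 ± 11.7 CPM (SD, n = 4) in the wild-type and V338Y groups, whereas at 19 months Ddx3y was at 0 counts and Xist at 999.6 ± 178 and 807 ± 89.8 CPM. By these transcripts the libraries of 3 months read as male and those of 19 months as female, although the methods describe female mice only. Cerebellum markers (7 genes) summed to 516 to 1489 CPM in 7 libraries at 3 months, to 71.6 CPM in the eighth, V338Y mouse 14, and to 62.5 to 79.0 CPM in all libraries at 19 months. Mrps5, in which the allele replaces an amino acid, stood at 39.4, 39.3, 30.2 and 30.3 CPM in the 4 groups, in the order wild-type and V338Y at 3 months and wild-type and V338Y at 19 months.

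Alpha-globin transcripts were low at 3 months and higher at 19 months in both genotypes. Hba-a1 was measured at 43.4, 23.6, 36.6 and 29.6 CPM in 3-month-old wild-type mice 9 to 12 and at 45.4, 34.9, 40.2 and 23.4 CPM in V338Y mice 13 to 16 of that age. The older animals had 166, 82.1, 122 and 109 CPM in wild-type mice 12 to 15 and 72.2, 90.1, 85.5 and 89.9 CPM in V338Y mice 17 to 20. No mouse of 3 months reached the lowest mouse of 19 months, whereas the genotypes overlapped at each age. Hba-a2 was at 34.9, 19.1, 22.3 and 22.2 CPM in the 3-month-old wild-type mice and at 36.2, 24, 28.1 and 16.3 CPM in the V338Y mice of that age. At 19 months Hba-a2 was at 114, 54.1, 75.4 and 82.4 CPM in wild-type mice and at 50.9, 61.0, 53.9 and 57.4 CPM in V338Y mice. The picture was that of Hba-a1, with 19-month-old wild-type mouse 12 the highest of all 16 and the 4 V338Y mice of that age close together.

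**Figure D1:**
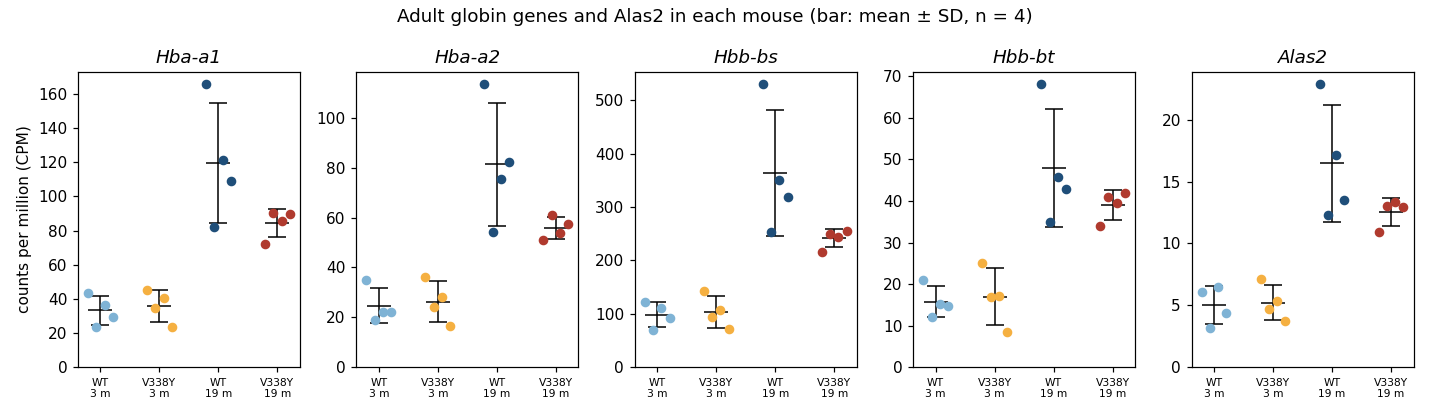
Level of each of the 5 genes in CPM in every mouse (points), with the mean and SD of each group of 4 as bars, for wild-type (WT) and V338Y mice at 3 and 19 months (m). All mice of 19 months lie above all mice of 3 months in the 5 panels, wild-type mouse 12 is the highest point of each, and the V338Y mice of 19 months lie within a narrow range.

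Beta-globin transcripts were likewise low at 3 months and higher at 19 months. Hbb-bs, the major adult beta chain gene here, was at 122, 69.1, 111 and 91.5 CPM in 3-month-old wild-type mice and at 142, 93.5, 106 and 72.1 CPM in 3-month-old V338Y mice. At 19 months Hbb-bs was at 530.0, 254, 349.9 and 318 CPM in wild-type mice and at 216, 250.1, 243 and 256 CPM in V338Y mice. Again the ages were separate and the genotypes overlapped, with 3 of 4 V338Y mice of 19 months below the lowest wild-type mouse of that age. Hbb-bt, the second adult beta chain gene, was at 21, 12, 15.2 and 14.6 CPM in 3-month-old wild-type mice and at 25.2, 16.9, 17.2 and 8.44 CPM in V338Y mice of that age. At 19 months Hbb-bt was at 68.1, 35.0, 45.8 and 42.8 CPM in wild-type mice and at 33.9, 41, 39.6 and 42.0 CPM in V338Y mice. The lowest of all mice for Hbb-bt was V338Y mouse 16 of 3 months.

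Alas2, the haem enzyme of the red cell line, was at 6.04, 3.18, 6.48 and 4.39 CPM in 3-month-old wild-type mice and at 7.09, 4.69, 5.34 and 3.75 CPM in the V338Y mice of that age. At 19 months Alas2 stood at 22.9, 12.3, 17.1 and 13.5 CPM in wild-type mice and at 10.9, 13, 13.3 and 12.9 CPM in V338Y mice. The ages did not overlap, and mouse 12 was again the highest wild-type mouse. Alas2 rested on 48 to 284 counts per mouse, against 992 to 6574 for Hbb-bs.

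Per kilobase of exon, Hbb-bs was the most abundant of the 5 genes and Alas2 the least. In 3-month-old wild-type mice the level per length was 128 ± 30.4 CPM per kb for Hbb-bs, 41 ± 10.6 for Hba-a1, 36.9 ± 10.5 for Hba-a2, 22.3 ± 5.35 for Hbb-bt and 2.09 ± 0.634 for Alas2 (SD, n = 4). In 19-month-old V338Y mice it was 314 ± 22.7, 104 ± 10.4, 83.6 ± 6.55, 55.7 ± 5.11 and 5.22 ± 0.459 CPM per kb in the same order. The order of the genes was the same in each of the 16 mice. The neighbours Hba-a1 and Hba-a2 overlapped in both of these groups, whereas Hbb-bs and Alas2 lay apart from the other genes.

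Within a mouse, the genes kept nearly constant proportions while their summed level varied. The 4 adult globin genes together were at 124 to 222 CPM in 3-month-old wild-type mice, 120.3 to 249 CPM in 3-month-old V338Y mice, 425 to 878 CPM in 19-month-old wild-type mice and 373 to 445 CPM in 19-month-old V338Y mice, a 7.30-fold range over all 16. Alas2 was at 24.5 to 35.0 counts per 1000 globin counts, a 1.43-fold range. The group means of this ratio were 28.9 ± 4.17 and 28.8 ± 1.60 at 3 months and 27.1 ± 2.22 and 29.8 ± 1.18 at 19 months for wild-type and V338Y mice (SD, n = 4). The groups overlapped, except that at 19 months the highest wild-type mouse (29.02) lay just below the lowest V338Y mouse (29.05), with exact 95% intervals that overlapped between all mice. The ratio of beta-globin to alpha-globin counts was 1.81 to 2.14 in all mice. Hba-a1 held 55.3% to 62.2% of the alpha-globin counts, and Hbb-bs held 84.7% to 89.5% of the beta-globin counts.

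**Figure D2:**
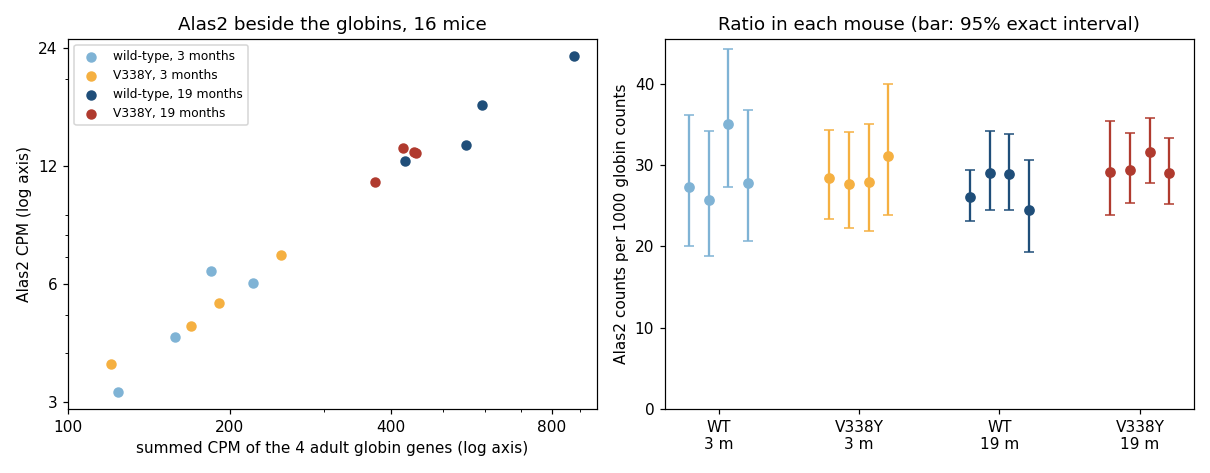
Alas2 in CPM against the summed CPM of the 4 adult globin genes in 16 mice (left, log axes) and Alas2 counts per 1000 globin counts with their exact 95% interval in each mouse (right). The summed globin level covers a 7.30-fold range along which Alas2 rises, and the ratio stays between 24.5 and 35.0 with intervals that overlap across groups.

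Log2 CPM values of the 10 pairs of these genes were correlated across the 8 mice of each age, 4 of each genotype. Genotype means were not subtracted and mice were permuted regardless of genotype, so r includes any difference between the genotypes. Pearson's r was between 0.801 and 0.989 and Spearman's rho between 0.786 and 1, and in the 20 relations computed the exact permutation p, adjusted by Benjamini-Hochberg, was at most 0.0186 for r and 0.0279 for rho. After leaving out the 2 mice farthest from the median of the first gene, r was between 0.653 and 0.957. The values of a pair share the library and its scaling, and those of Hba-a1 with Hba-a2 and of Hbb-bs with Hbb-bt also share sequence.

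Between the ages, the 5 genes rose in wild-type and in V338Y mice. In wild-type mice the log2 fold change from 3 to 19 months was 1.90 ± 0.29 (SE) for Hba-a1, 1.78 ± 0.30 for Hba-a2, 1.92 ± 0.30 for Hbb-bs, 1.68 ± 0.28 for Hbb-bt and 1.79 ± 0.29 for Alas2, which is 3.20-fold to 3.77-fold. The adjusted p of edgeR's quasi-likelihood test was between 0.00104 and 0.00210. All 5 of 5 passed the test and did not overlap between the ages, beside 31.4% of all genes tested that passed as higher (31.5% as lower) and 26.9% that were higher without overlap. The median change of the 5 genes was 1.79, beside -0.00496 over all genes tested. Without wild-type mouse 12 of 19 months the changes were between 1.44 and 1.69, and all 5 still passed.

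In V338Y mice the log2 fold change from 3 to 19 months was 1.23 ± 0.19 (SE) for Hba-a1, 1.09 ± 0.21 for Hba-a2, 1.22 ± 0.19 for Hbb-bs, 1.21 ± 0.28 for Hbb-bt and 1.27 ± 0.16 for Alas2, or 2.13-fold to 2.41-fold. The edgeR adjusted p was between 4.5e-05 and 0.0104. All 5 passed and did not overlap, beside 23.1% of all genes tested that passed as higher (25.7% as lower) and 22.2% that were higher without overlap, and the median was 1.22 beside -0.03 over all genes. Age cannot be told apart from sex as read from the Y-linked transcripts and Xist, or from the -N ending of the titles. But for 1 library, it cannot be told apart from the cerebellum markers either. V338Y mouse 14, the library of 3 months with cerebellum markers at 71.6 CPM, had a globin sum of 169 CPM, between the other V338Y mice of 3 months and below all mice of 19 months. This is 1 library, which also held Y-linked transcripts, and the part of the cerebellum markers in the age difference was not tested.

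**Figure D3:**
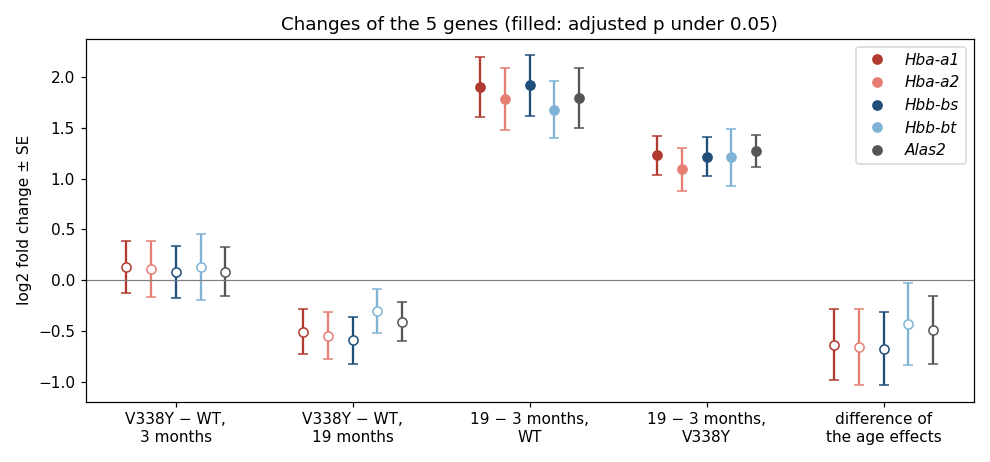
Log2 fold change with its standard error from the quasi-likelihood fit for the 5 genes in the 4 comparisons and for the difference of the age effects between the genotypes. Filled points have an adjusted p under 0.05, which is the case for all 5 genes in both age comparisons and for none in the other comparisons.

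At 3 months the genotypes differed little in these genes. The log2 fold change of V338Y against wild-type was 0.13 ± 0.25 (SE) for Hba-a1, 0.11 ± 0.28 for Hba-a2, 0.09 ± 0.26 for Hbb-bs, 0.13 ± 0.33 for Hbb-bt and 0.08 ± 0.24 for Alas2. None of the 5 passed edgeR's test (adjusted p 0.961 to 0.977) or that of DESeq2, beside 0.0616% of all genes tested that edgeR called and 0.16% that DESeq2 called. At an unadjusted p under 0.05 the count was 0 of 5 with both tools, beside 5.02% of all genes with edgeR and 3.93% with DESeq2. The SE leaves differences of this size undetectable with 4 mice per group, and the sign turned for 4 of the genes without V338Y mouse 13 and for 3 without wild-type mouse 10.

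At 19 months the 5 genes were lower on average in V338Y than in wild-type mice, and the differences did not pass the test. Group means were 119.7 ± 34.9 CPM in wild-type and 84.4 ± 8.42 CPM in V338Y mice for Hba-a1, 81.4 ± 24.6 and 55.8 ± 4.37 for Hba-a2, and 363 ± 118 and 241 ± 17.4 for Hbb-bs (SD, n = 4). They were 47.9 ± 14.2 and 39.1 ± 3.60 CPM for Hbb-bt and 16.5 ± 4.74 and 12.5 ± 1.10 CPM for Alas2. The log2 fold change was -0.50 ± 0.22 (SE) for Hba-a1, -0.54 ± 0.23 for Hba-a2, -0.59 ± 0.23 for Hbb-bs, -0.30 ± 0.22 for Hbb-bt and -0.41 ± 0.19 for Alas2, with an edgeR adjusted p between 0.282 and 0.578. Of the 5 genes 0 passed with edgeR or DESeq2, beside 3.12% and 2.36% of all genes tested. At an unadjusted p under 0.05 the count was 1 with edgeR, Hbb-bs (0.0415), beside 16.2% of all genes, and 4 with DESeq2, beside 10.9%. The groups overlapped for each gene, beside 4.83% of all genes that were lower in V338Y mice without overlap, and the median of the 5 genes was -0.50 beside -0.00072 over all genes. Without wild-type mouse 12 the changes were between -0.34 and -0.05. Alas2 passed in 2 alternatives, without wild-type mouse 13 (log2 fold change -0.55, adjusted p 0.0498) and without a filter on counts (-0.39, adjusted p 0.00482).

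Of the 4 groups, V338Y mice at 19 months had the smallest spread between animals. The coefficient of variation of the 5 genes was 7.22% to 9.97% in this group, against 23.7% to 30.3% in 3-month-old wild-type, 26.2% to 40.3% in 3-month-old V338Y and 28.8% to 32.6% in 19-month-old wild-type mice. The highest mouse had 1.19 times the summed globin level of the lowest in the 19-month-old V338Y group, and 1.79 to 2.07 times in the others. The difference in spread was not tested.

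The rise with age was smaller on average in V338Y than in wild-type mice, and this difference did not pass either. The interaction was -0.63 ± 0.35 (SE, log2) for Hba-a1, -0.66 ± 0.37 for Hba-a2, -0.67 ± 0.35 for Hbb-bs, -0.43 ± 0.41 for Hbb-bt and -0.49 ± 0.33 for Alas2. The edgeR adjusted p was between 0.539 and 0.741, and 0 of 5 genes passed with edgeR or DESeq2, beside 0.0535% and 0.256% of all genes. At an unadjusted p under 0.05 it was 0 of 5 with either, beside 10.2% of all genes with edgeR and 8.82% with DESeq2. The 2 age comparisons and the 2 genotype comparisons use the same 4 groups, so they are not independent of each other. The levels of the 5 genes moved together across mice, so the genes are not 5 independent results either.

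Other transcripts of the red cell line were near the limit of detection. Of the embryonic and minor globins, Hba-x, Hbb-bh1 and Hbb-bh2 were at 0 counts in all 16 mice, Hbb-y was at 0 at 3 months and at 1 to 11 counts per mouse at 19 months, and none of the 6 passed the filter on counts. Gata1, the factor that drives red cell development, was at 0 in all mice, and Klf1 had at most 6 counts. Among genes of the red cell membrane and late maturation, Slc4a1 (band 3, the anion exchanger of the red cell) rose with age in wild-type mice from 0.410 ± 0.304 to 1.31 ± 0.497 CPM (log2 fold change 1.55, edgeR adjusted p 0.00256). In V338Y mice its log2 fold change was 0.31, with an adjusted p of 0.558. Slc4a1 rested on 1 to 21 counts per mouse over the 16 mice. Tfr2, transferrin receptor 2, did not pass in either (0.20 and 0.09). Between the genotypes at 19 months the log2 fold change of Slc4a1 was -0.74, with an adjusted p of 0.264.

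As a list, genes of red cells that brain cells also use did not share the pattern. Of the 9 listed, 1 rose and 3 fell with age in wild-type mice and 2 rose and 2 fell in V338Y mice, with medians of -0.06 and -0.10. Sptb, which encodes beta-spectrin, was at 335 ± 8.22 and 341 ± 12.1 CPM in wild-type mice of 3 and 19 months, and Ank1, ankyrin 1, fell from 160.2 ± 9.97 to 86.7 ± 5.06 CPM. Slc25a37 was closer to the globins, at 15.6 ± 0.798 and 18.3 ± 1.40 CPM in wild-type and V338Y mice of 3 months. At 19 months it was at 25.2 ± 1.29 and 21.8 ± 1.13 CPM, without overlap of the ages in either genotype. Its highest V338Y mouse of 19 months (22.7 CPM) lay below the lowest wild-type mouse of that age (23.7 CPM), as for 4.83% of all genes. No gene of this list passed between the genotypes. Of the erythroid factors and the erythropoietin receptor, 3 of 7 were tested and 0 passed with age in wild-type mice and 1, Zfpm1, in V338Y mice (log2 fold change 0.37, adjusted p 0.0402).

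The ubiquitous haem synthesis genes did not follow Alas2. Of 8 tested, 1 rose and 4 fell with age in wild-type mice (median -0.18) and 1 rose and 2 fell in V338Y mice (median -0.12). Alas1 rose from 65.5 ± 2.49 to 73.0 ± 3.45 CPM in wild-type mice (log2 fold change 0.17, edgeR adjusted p 0.00681), and Fech, which inserts iron into the porphyrin ring, was at 0.04 with an adjusted p of 0.628. No gene of this list passed between the genotypes at either age.

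Of 16 genes that bind or degrade haemoglobin, haem or iron, 12 rose and 2 fell with age in wild-type mice (median 0.38), and 10 rose and 2 fell in V338Y mice (median 0.42). Of all genes tested, 31.4% and 23.1% rose. Fth1, the ferritin heavy chain, rose from 553 ± 20.9 to 828 ± 29.3 CPM in wild-type and from 575 ± 27.0 to 841 ± 34.3 CPM in V338Y mice. Lrp1, which takes up haem bound to haemopexin among many other ligands, rose by 0.58 and 0.42 on the log2 scale. Between the genotypes at 19 months 1 of 16 passed, Cp (ceruloplasmin, a copper ferroxidase), at 129 ± 11.3 CPM in wild-type and 102 ± 8.22 CPM in V338Y mice (log2 fold change -0.36, adjusted p 0.00443). Of the globins of other tissues, Cygb fell with age in both genotypes (-0.87 and -0.74) and Ngb, the neuronal globin, fell in wild-type mice (-0.63, adjusted p 0.000458). Mb, the muscle globin, could not be tested with age in wild-type mice and rose in V338Y mice (4.92 ± 1.41, SE, adjusted p 0.0265).

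**Figure D4:**
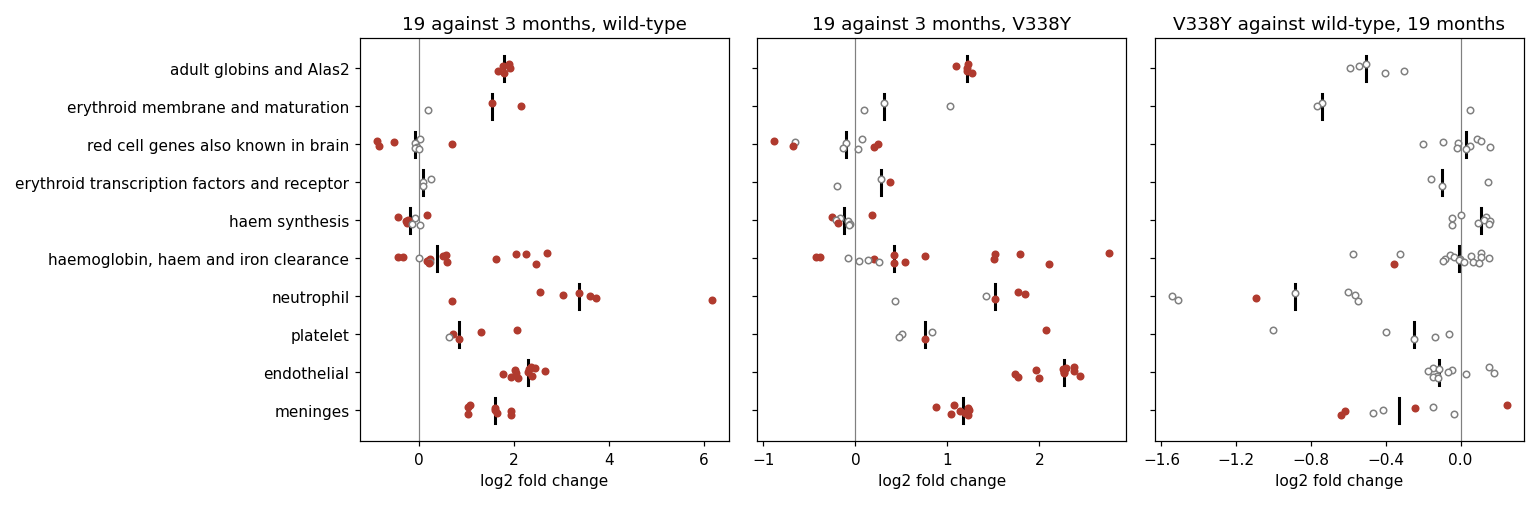
Log2 fold change of every tested gene of 10 lists, with age in wild-type and in V338Y mice and with genotype at 19 months (points, red where the adjusted p is under 0.05), and the median of each list as a black bar. The adult globins and Alas2 lie at 1.68 to 1.92 and at 1.09 to 1.27 with age and at -0.59 to -0.30 with genotype, while the endothelial markers have medians of 2.30, 2.27 and -0.11.

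Markers of other blood cells and of vessels moved with age beside the globins. Neutrophil markers (10 genes) summed to 2.38 to 8.82 CPM at 3 months, 16 to 34.9 CPM in 19-month-old wild-type and 10.9 to 13.5 CPM in 19-month-old V338Y mice, and 3 of the 10 (Mmp8, Elane and Mpo) were at 0 counts in all 3-month-old wild-type mice. With age 7 of 7 tested rose in wild-type and 3 of 5 in V338Y mice. At 19 months 1 of 7 passed between the genotypes, Ltf (lactotransferrin, a granule protein), at 3.63 ± 1.33 against 1.64 ± 0.509 CPM (log2 fold change -1.09, adjusted p 0.0139), and the median was -0.89. Of the lymphocyte markers, 2 of 10 were tested and both were lower in V338Y mice at 19 months, Ighm (-0.50, adjusted p 0.00807) and Igkc (-1.62, adjusted p 6.6e-05), which encode immunoglobulin chains. Platelet markers rose for 4 of 5 genes tested in wild-type and 2 of 5 in V338Y mice, and none passed between the genotypes at 19 months, where the median was -0.25. Monocyte markers (5 genes) summed to 1.01 to 2.05 CPM at 3 months and to 3.64 to 5.41 CPM at 19 months, where 0 of 3 tested passed between the genotypes. The mouse with the highest globins at 19 months, wild-type mouse 12, had 16.6 CPM of neutrophil markers, while the highest sum of these, 34.9 CPM, was in wild-type mouse 14.

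Endothelial markers (11 genes) summed to 298 to 318 CPM at 3 months and to 1267 to 1457 CPM at 19 months, and 11 of 11 rose in both genotypes. Flt1, a receptor for vascular endothelial growth factor, rose by 2.30 and 2.27 on the log2 scale in wild-type and V338Y mice. The summed globin level per summed endothelial level in wild-type and V338Y mice was 0.560 ± 0.147 and 0.594 ± 0.163 at 3 months and 0.434 ± 0.147 and 0.312 ± 0.0233 at 19 months (SD, n = 4). So the mean of this ratio was not higher at 19 months, although the globins were, and the groups of different age overlapped in wild-type mice (0.396 to 0.737 against 0.293 to 0.640) but not in V338Y mice (0.404 to 0.793 against 0.295 to 0.346). Meninges markers (8 genes) also rose with age for 8 of 8 genes in both genotypes. The globin level per summed meninges level was 1.25 ± 0.226, 1.32 ± 0.395, 1.79 ± 0.504 and 1.43 ± 0.247 in the 4 groups in the order above, with overlap between all of them. Between the genotypes at 19 months 4 of the 8 meninges markers passed, with a list median of -0.33 and sums of 301 to 369.95 CPM in wild-type and 266 to 344 CPM in V338Y mice. The log2 fold change was -0.64 for Ogn (adjusted p 0.0150), -0.62 for Slc22a6 (6.7e-05) and -0.24 for Dcn (0.0237), while Col1a1 was higher in V338Y mice (0.25, adjusted p 0.0260). In bulk tissue, fewer cells of a type and less RNA per cell cannot be told apart, and the part of these markers in the age and genotype differences of the globins was not tested. Choroid plexus markers varied from 161 to 2340.1 CPM within 19-month-old V338Y mice, the group in which the globin sum varied least. With age 1 of the 12 choroid plexus markers rose and 1 fell in wild-type mice and 0 passed in V338Y mice. Of 6 cortical neuron markers 2 rose and 1 fell in each genotype, and of 7 cerebellum markers 7 fell in each.

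**Figure D5:**
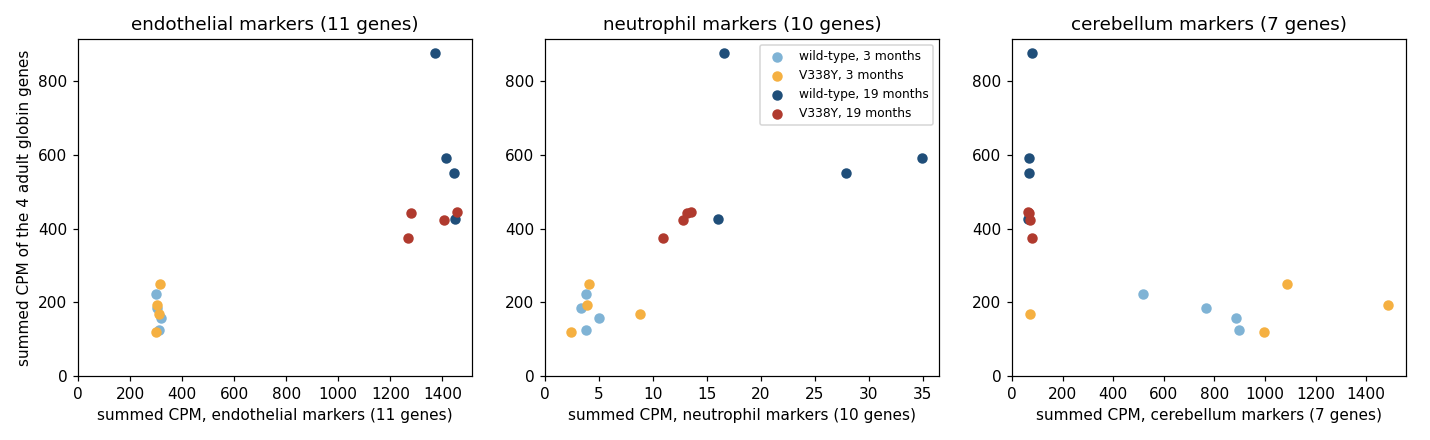
Summed CPM of the 4 adult globin genes in each of 16 mice against the summed CPM of endothelial, neutrophil and cerebellum markers. Mice of 19 months lie at 1267 to 1457 CPM of endothelial markers and those of 3 months at 298 to 318 CPM, and the 3-month-old V338Y mouse with 71.6 CPM of cerebellum markers has a globin sum of 169 CPM, among the other mice of its age.

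The genes outside the 5 whose level was most like the mean log2 CPM of the 4 globins were sought over the 16 mice after each group mean was subtracted. Over 16826 genes, the 10 with the highest Pearson's r were Smo, Rab13, Slc6a8, Elovl6, Tlnrd1, Gpsm3, Pgls, Rwdd1, Tbkbp1 and Nr2f6, with r from 0.839 down to 0.787. Alas2, which is not part of this mean, had an r of 0.909, and no gene outside the 5 exceeded 0.9. Each of the 4 globins is itself part of the mean, so its own r (0.975 to 0.983) was high in advance. Smo, with the highest r of 0.839, ranged from 12.5 to 30.2 CPM over all mice, and its r before subtracting the group means was 0.956. Of the genes on the lists, the highest was Fech with an r of 0.499, at rank 592. By Spearman's rho 3 of the 10 genes remained among the first 10. These values describe the 16 libraries and carry no test.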

How the data were processed

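RNA sequencing of 16 mouse brain samples was used, with groups taken from the sample labels. Per the methods of the study, the authors estimated the count of each gene with RSEM, while the submitters' processing notes name bcl2fastq 1.8.4, STAR 2.4.2a, featureCounts and GRCm38. The deposited expected counts were whole numbers without normalization, cut to 4 significant digits, and were used as deposited. Symbols of 37607 of 39179 identifiers came from a list of gene names and positions of 37693 from GENCODE M21 (GRCm38). Of 153 listed genes 152 matched. All pairs of libraries of a group differed beyond sampling noise.

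The filter kept a gene where 50% or more of the animals in a group had 10 counts or more, and tests were made with edgeR 4.0.16 (TMM, robust quasi-likelihood test, Benjamini-Hochberg, threshold 0.05) in R 4.3.3, on the 8 libraries of a comparison or on all 16 for the interaction. Log2 CPM used a prior count of 2. Intervals are exact at 95% and cover counting error only. Scripts were tested on simulated data. DESeq2 1.42.0, RLE size factors, library size only, TMM without the 5 genes, other filters, 1 fit of all libraries, summed copies, a globin covariate and leaving out each mouse were alternatives.

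All 5 genes were named in every comparison. Of each list all genes were counted. Named were some of the 4 with the highest mean CPM, those that passed between genotypes and the 10 genes most like the globins. Hbb-y, Hbb-bh1, Hbb-bh2, Gata1, Slc25a37, Mmp8, Elane and Mpo include names chosen after their values were seen. The genes and lists were chosen with earlier results of these data known. Listed under cell types were neutrophil, platelet, lymphocyte, monocyte, endothelial, choroid plexus, meninges, cortex and cerebellum markers. Not every listed gene is reported here.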

Additional observations from a re-analysis of the deposited data

Results flagged for a closer look

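Of 40 sets of 4 mice checked for a mouse apart from the rest, 4 held one, where chance gives about 5%. Alas2 was at 10.9 CPM in 19-month-old V338Y mouse 17, below the 12.9 to 13.3 CPM of the other 3 mice, and its counting interval of 8.95 to 13.2 CPM overlapped with theirs. Hba-a1 held 55.6% of the alpha-globin counts in 3-month-old V338Y mouse 13, the mouse with the highest globin sum of its group, against 58.8% to 59.2% in the others. The ratio of beta-globin to alpha-globin counts was 1.93 in 19-month-old V338Y mouse 18, against 2.02 to 2.03. Alas2 was at 31.6 counts per 1000 globin counts in 19-month-old V338Y mouse 19, against 29.0 to 29.4, with an interval of 27.7 to 35.7. A different mouse stood apart in each of the 4 measures.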

How the results depend on the processing

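With age, the 5 genes passed in the same direction in the 8 alternatives computed for them and without each mouse; the globin covariate was used for counts of genes only. No paired analysis was possible because the groups compared share fewer than 2 mouse numbers. Between genotypes at 3 months the log2 fold change without each mouse in turn was -0.0115 to 0.29 for Hba-a1, -0.0776 to 0.31 for Hba-a2, -0.10 to 0.22 for Hbb-bs, -0.11 to 0.36 for Hbb-bt and -0.11 to 0.25 for Alas2. It was negative without wild-type mouse 10 for Hba-a1 (-0.0115), Hbb-bs (-0.06) and Alas2 (-0.11), and without V338Y mouse 13 for Hba-a2 (-0.0776), Hbb-bs (-0.10), Hbb-bt (-0.11) and Alas2 (-0.09). At 19 months Alas2 passed without a filter on counts (-0.39) and without wild-type mouse 13 (-0.55, in a range of -0.55 to -0.18), and the cause was not tested. The number of genes called at 19 months moved from 512 to 791 without a filter and 116 in 1 fit of all libraries, and was 287 to 611 without each mouse, lowest without V338Y mouse 19 (287) and wild-type mouse 13 (294). At 3 months 10 genes became 20 without a filter, 26 with DESeq2, 23 in 1 fit, and 6 to 13 without each mouse. With the globin level as a covariate, which differs between the ages, the age comparisons called 4093 genes instead of 10115 in wild-type and 1791 instead of 8181 in V338Y mice. The interaction called 9 genes, 32 without a filter, 43 with DESeq2 and 1 to 57 without each mouse, alternatives chosen after seeing the data, with 1 without wild-type mouse 10 and 57 without V338Y mouse 14. With 4 mice per group and a coefficient of variation near 30% in 3 groups, differences between genotypes could be missed even above their SE. At 19 months Hbb-bs, at -0.59 ± 0.23 (SE), did not pass (edgeR adjusted p 0.282).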

Other observations

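Hbb-bs held 87.9% to 88.6% of the beta-globin counts in 19-month-old wild-type mice and 85.9% to 86.4% in 19-month-old V338Y mice. The 4 mice of each genotype did not overlap. The exact 95% intervals of single mice overlapped in part, as those of wild-type mouse 15 (86.7% to 89.5%) and V338Y mouse 17 (85.0% to 87.8%) did, whereas that of wild-type mouse 12 (87.9% to 89.3%) lay above all V338Y intervals. At 3 months the shares were 85.2% to 87.9% and 84.7% to 89.5% and overlapped. This split of similar transcripts was looked at among several ratios after the values were seen and was not tested. Mb, the muscle globin, was at 0.933 to 15.1 CPM in 19-month-old V338Y mice and at most 0.434 CPM in all other mice, with a log2 fold change of 5.31 ± 2.01 (SE) at 19 months and an edgeR adjusted p of 0.273.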
